A study of Mus musculus with 36 samples.

Results

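The transcripts of 9 myeloid C-type lectin receptors were followed in RAW264.7 cells, a mouse macrophage line, given a short peptide from a human HLA-DRβ chain together with IFNγ or Il-4. The genes were Clec7a, Clec4n, Clec4e, Clec4d, Clec5a, Clec12a, Clec4a1, Clec4a2 and Clec4a3. They were taken by symbol from the 49568 rows of each deposited count table, and all 9 were present in both tables. The 36 RNA-seq libraries formed 6 groups of 6. In the IFNγ series the groups were PBS, the peptide 65–79*SE (shared epitope) and the peptide 65–79*PE (protective epitope), and the Il-4 series had the same 3 groups. Each peptide spanned 15 residues and was used at 100 µg/ml with cytokine at 5 ng/ml for 72 h, with fresh medium and reagents at 48 h. The PBS libraries were labelled with the cytokine of their series, and the text does not settle whether PBS cells received it. A contrast against PBS may therefore hold the effect of the cytokine as well as that of the peptide, which cannot be told apart in it. Genes of the cytokine response were lower in PBS than in most peptide libraries (values below). A rise, fall or response with a peptide below means this contrast, with any effect of the cytokine included. All groups shared the same cell line, so no donor or strain varied between them.

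C-type lectin receptors of myeloid cells read sugars and glycolipids on fungi, mycobacteria and damaged cells. Clec7a (Dectin-1) binds β-glucan and signals through an ITAM-like motif in its own tail. Clec4n (Dectin-2), Clec4e (Mincle) and Clec4d (MCL) instead pair with the adaptor encoded by Fcer1g, and Clec5a pairs with the adaptor encoded by Tyrobp. These receptors recruit the kinase Syk and, through Card9, Bcl10 and Malt1, reach NF-κB. Clec12a and Clec4a2 carry an inhibitory ITIM motif that recruits phosphatases such as Ptpn6. Clec4a1 and Clec4a3 are further members of the Clec4a (DCIR) family.

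All 9 genes lie on mouse chromosome 6 (positions by symbol from GENCODE, build GRCm38). The 6 Clec4 genes fill 368 kb from the start of Clec4a1 (chr6:122921848-122934619) to the end of Clec4e (chr6:123281789-123289870). Clec12a (chr6:129342691-129365303) and Clec7a (chr6:129461591-129472779) lie within 130.1 kb of sequence, and Clec5a (chr6:40574894-40585821) stands alone. No exon of a member overlapped an exon of another gene. Of all 100-base windows in the transcripts, 2.14% of those of Clec4a2 also occurred in Clec4a4, and none of the windows of the other 8 members occurred in another gene. The annotation classed Clec7a as a polymorphic pseudogene and the other 8 as protein-coding.

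RefSeq (GRCm38.p6) gave a promoter window for 8 members, all but Clec4n, and 250 bases before the start were searched on both strands. The letters TTC and GAA with 4 bases between, the spacing that STAT6 binds, occurred in Clec7a, Clec4a1 and Clec5a, against 5.85% of the 32851 windows of the table. GAGGAA, a core bound by the myeloid factor PU.1, occurred in 6 of the 8 members, against 23.3%. TGANTCA, an AP-1 site, occurred in Clec12a alone, against 6.75%, and a pair of IRF half-sites (GAAA, 2 bases, GAAA) in 0 of 8, against 2.98%. The 3 windows that hold the STAT6 spacing are printed 5′ to 3′ on the strand of the gene, with the motif matches in capitals.
Clec7a, chr6:129472780-129473029, minus strand: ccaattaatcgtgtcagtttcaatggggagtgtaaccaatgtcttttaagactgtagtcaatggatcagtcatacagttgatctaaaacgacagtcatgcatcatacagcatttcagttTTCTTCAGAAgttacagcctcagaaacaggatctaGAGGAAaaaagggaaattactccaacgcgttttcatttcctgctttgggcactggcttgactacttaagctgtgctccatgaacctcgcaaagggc
Clec4a1, chr6:122921598-122921847, plus strand: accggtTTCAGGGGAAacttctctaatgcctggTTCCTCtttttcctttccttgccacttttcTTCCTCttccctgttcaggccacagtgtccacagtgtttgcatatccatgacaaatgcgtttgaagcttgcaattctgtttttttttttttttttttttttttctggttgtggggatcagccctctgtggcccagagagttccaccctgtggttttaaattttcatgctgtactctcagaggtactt
Clec5a, chr6:40585806-40586055, minus strand: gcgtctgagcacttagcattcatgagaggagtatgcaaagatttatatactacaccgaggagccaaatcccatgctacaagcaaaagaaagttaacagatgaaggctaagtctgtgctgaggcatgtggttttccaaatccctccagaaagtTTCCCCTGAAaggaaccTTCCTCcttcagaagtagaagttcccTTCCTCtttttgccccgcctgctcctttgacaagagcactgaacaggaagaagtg
The STAT6 spacing ended 122 bases before the start of Clec7a, 235 bases before that of Clec4a1 and 89 bases before that of Clec5a. The other capitals in these windows are GAGGAA or its complement. A match describes letters in the window and was not tested as a binding site.

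The libraries held 20.7 to 63.2 M counts with IFNγ and 17.0 to 30.6 M with Il-4, so that 3 counts, the limit a count of 0 allows, were at most 0.176 CPM (counts per M library counts, scaled by TMM). Replicates 1–3 and 4–6 carried different naming schemes, called label sets here, and are shown apart. The libraries are described as biological replicates of independent experiments, while the labels tie no library to an experiment. Of 9 macrophage markers, 8 were at or above 1 CPM in every library, and summed neutrophil, lymphocyte and fibroblast markers were at most 2.50 CPM in any library. The 3 libraries labelled 65–79*SE with IFNγ, replicates 4–6, stood apart. A list of 10 genes induced by IFNγ summed to 474 to 561 CPM in them. It summed to 671 to 878 CPM in the 6 PBS libraries and to 3872 to 5280 CPM in the other 9 peptide libraries of the series. In the Il-4 series the 10 Il-4 response genes summed to 2.58 to 3.57 CPM in PBS libraries and to 54.6 to 173 CPM in peptide libraries. The members' contrasts over all libraries are given with and without the 3 IFNγ libraries. The fits within replicates 4–6, the counts over gene lists and the differences between series with 65–79*SE include them and have no value without them.

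Per kilobase of exon, Clec4d was the most abundant member in all 12 sets of 3 libraries. In PBS libraries it stood at 132 ± 13.4 CPM per kb (SD, n = 3) in replicates 1–3 of the IFNγ series and at 103 ± 5.64 in replicates 4–6. Clec4a3, Clec4e and Clec5a followed at 26.8 to 44.7 CPM per kb in those libraries, where Clec4e overlapped both Clec4a3 and Clec5a in replicates 1–3, and Clec4a3 overlapped Clec5a in replicates 4–6. Clec4a1 was the lowest, at 0.830 ± 0.0643 and 0.692 ± 0.0678 CPM per kb. In the Il-4 series the PBS libraries again had Clec4d first and Clec4a1 last. The members with the fewest counts were Clec4a1 (13 to 309 counts per library) and Clec4n (14 to 248), while Clec4d and Clec4e had at least 1944 counts in every library.

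Among receptors that activate cells, Clec7a moved most in the IFNγ series. In replicates 1–3 it stood at 8.66, 6.94 and 5.27 CPM with PBS, at 51.1, 44.3 and 49.4 CPM with 65–79*SE, and at 28.9, 29.9 and 24.95 CPM with 65–79*PE, so the 3 groups did not overlap. The rise over PBS was 7.04-fold with 65–79*SE (log2 fold change 2.82 ± 0.13 SE, adjusted p = 5.66e-10) and 4.11-fold with 65–79*PE (2.04 ± 0.13, adjusted p = 2.75e-08). Those of replicates 4–6 stood at 16.4, 17.8 and 16.9 CPM with PBS, 18.7, 18.1 and 18.1 CPM with 65–79*SE, and 121, 91.6 and 99.4 CPM with 65–79*PE. Here the rise with 65–79*PE was 6.12-fold (2.61 ± 0.10, adjusted p = 2.43e-09). The libraries labelled 65–79*SE, each above all PBS libraries, were 0.11 ± 0.10 from PBS on the log2 scale (adjusted p = 0.618), and these are the 3 libraries with a low IFNγ list. Clec7a was thus 1.71-fold higher with 65–79*SE than with 65–79*PE in replicates 1–3 and 5.66-fold lower in replicates 4–6 (adjusted p = 0.00032 and 4.23e-09), and the shift between label sets was itself past the threshold (3.30 ± 0.17, adjusted p = 1.78e-11).

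The 2 receptors encoded next to each other at the end of the Clec4 cluster, Clec4d and Clec4e, were lower with 65–79*PE than with 65–79*SE in both label sets. Clec4d stood at 231, 215 and 189 CPM with PBS, 261, 234 and 264 with 65–79*SE and 170, 174 and 196 with 65–79*PE in replicates 1–3. Its levels in replicates 4–6 were 159, 161 and 176 CPM, 183, 172 and 164 CPM, and 123, 119 and 112 CPM in the same order of groups. Every 65–79*SE library lay above every 65–79*PE library of its label set. Against PBS, Clec4d fell with 65–79*PE in replicates 4–6 (-0.49 ± 0.07, adjusted p = 0.00029), and its value in replicates 1–3 was -0.19 ± 0.08 (adjusted p = 0.0575). The log2 difference of Clec4d between the peptides was 0.48 ± 0.08 (adjusted p = 0.000734) and 0.56 ± 0.07 (adjusted p = 8.57e-05), less than the 1.5-fold asked of a call. Clec4e stood at 202, 174 and 203 CPM with 65–79*SE against 98.5, 105 and 107 CPM with 65–79*PE in replicates 1–3, a log2 difference of 0.89 ± 0.16 (adjusted p = 0.00155). The levels in replicates 4–6 were 229, 214 and 217 CPM against 176, 174 and 169 CPM, a difference of 0.35 ± 0.06 (adjusted p = 0.00109). These 2 genes kept the direction of the peptide difference across label sets, whereas Clec7a did not. The 65–79*SE libraries of replicates 4–6 are those with a low IFNγ list. A difference of the peptides there cannot be told apart from a difference in the IFNγ response. In them Clec4d averaged 173 CPM and Clec4e 220 CPM, against 165 and 222 CPM with PBS. PBS libraries of replicates 1–3 spread widely for Clec4e, at 210, 132 and 110 CPM. Against PBS, Clec4e with 65–79*PE was lower in both label sets (log2 fold changes -0.50 ± 0.16 and -0.36 ± 0.06, adjusted p = 0.0211 and 0.00112), also short of 1.5-fold. Without replicate 1 the value in replicates 1–3 was -0.17 (adjusted p = 0.157), and by DESeq2 its adjusted p was 0.0697.

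Clec4n, the receptor of the same cluster that pairs with Fcer1g and binds fungal mannan, was low and variable. It stood at 5.13, 3.39 and 3.43 CPM with PBS, 6.68, 6.04 and 6.57 CPM with 65–79*SE and 2.17, 2.32 and 3.40 CPM with 65–79*PE in replicates 1–3. The 65–79*SE libraries were above both other groups, by 1.64-fold over PBS (adjusted p = 0.00532) and by 2.42-fold over 65–79*PE (adjusted p = 0.000356). Without replicate 2 the adjusted p against PBS was 0.0518. In replicates 4–6 it stood at 2.87, 2.37 and 3.76 CPM with PBS, 4.38, 4.97 and 6.06 CPM with 65–79*SE and 6.29, 5.84 and 5.64 CPM with 65–79*PE. Here Clec4n rose 1.95-fold with 65–79*PE (adjusted p = 0.00201). Clec4n was the 1 member whose response to 65–79*PE took opposite signs, at -0.56 ± 0.20 (adjusted p = 0.0316) and 0.96 ± 0.18 (log2). The first of these was -0.23 (adjusted p = 0.385) without replicate 1, -0.57 without replicate 2, again not past the threshold, and -0.88 without replicate 3. With all libraries, the difference between label sets was past the threshold (-1.56 ± 0.28, adjusted p = 0.00167).

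Clec5a rose 1.73-fold with 65–79*SE in replicates 1–3, from 108, 103 and 98.0 CPM to 180, 159 and 186 CPM (adjusted p = 1.82e-07). With 65–79*PE it stood at 122, 122 and 115 CPM, a log2 fold change over PBS of 0.26 ± 0.06 (adjusted p = 0.00433). In replicates 4–6 it stood at 123 to 153 CPM with PBS, 129 to 188 with 65–79*SE and 169 to 196 with 65–79*PE. The 65–79*SE libraries overlapped both other groups, and no difference passed an adjusted p of 0.05 (0.0519 for 65–79*PE against PBS).

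**Figure D1:**
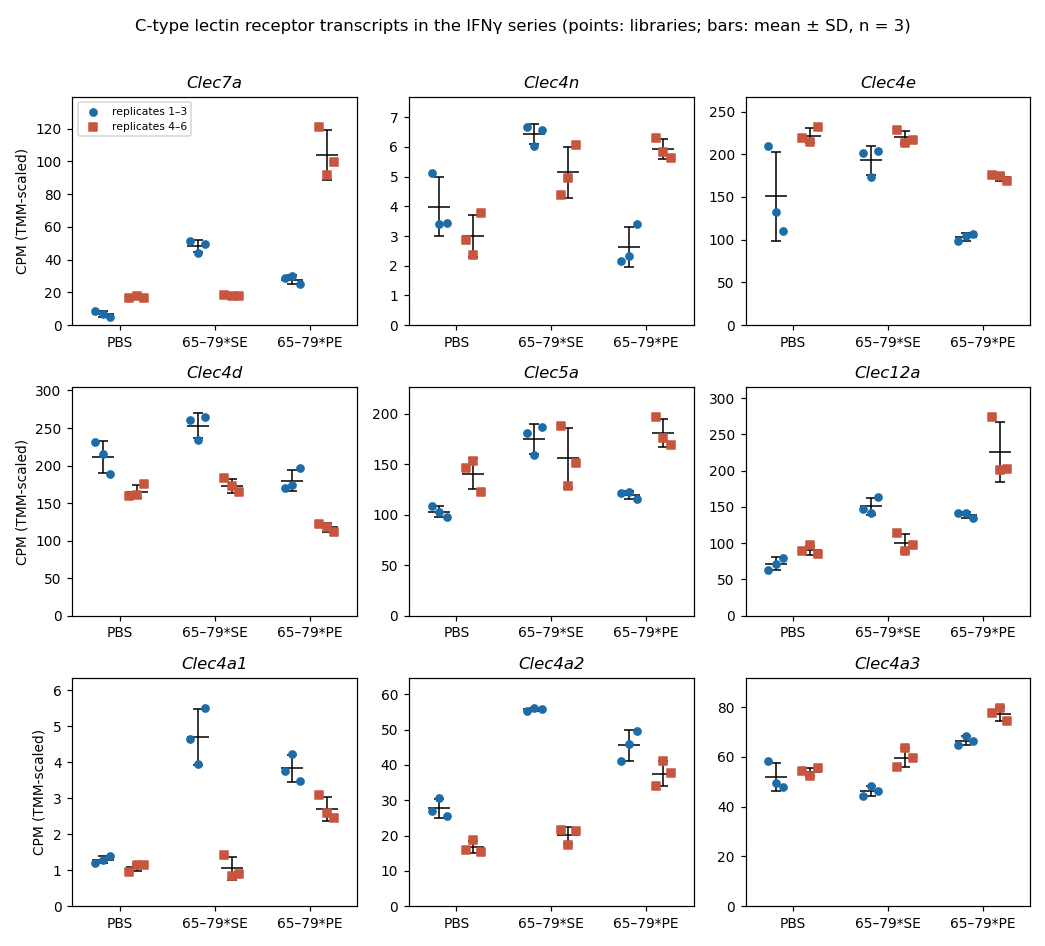
Levels of the 9 receptor transcripts in the IFNγ series, in TMM-scaled CPM on a linear axis from 0, for PBS, 65–79*SE and 65–79*PE. Points are libraries (circles, replicates 1–3, squares, replicates 4–6), bars are mean ± SD of 3 libraries; Clec7a with 65–79*SE averaged 48.3 CPM in replicates 1–3 and 18.3 CPM in replicates 4–6, while Clec4d with 65–79*PE lay under 65–79*SE in both.

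The ITIM-bearing receptors Clec12a and Clec4a2 rose with 65–79*PE in both label sets. Clec12a stood at 62.8, 71.9 and 80.1 CPM with PBS, 147, 141 and 164 CPM with 65–79*SE and 141, 142 and 135 CPM with 65–79*PE in replicates 1–3. The peptide groups lay apart from PBS and overlapped each other. For replicates 4–6 the levels were 88.8, 97.1 and 84.8 CPM, 114, 89.6 and 98.0 CPM, and 274, 201 and 203 CPM. The rise of Clec12a with 65–79*PE was 2.00-fold (log2 1.00 ± 0.09, adjusted p = 5.11e-07) and 2.50-fold (1.32 ± 0.12, adjusted p = 8.78e-06). With 65–79*SE it was 2.14-fold in replicates 1–3 (adjusted p = 1.37e-07) and a log2 of 0.16 ± 0.12 in replicates 4–6 (adjusted p = 0.539). Clec4a2 rose 1.69-fold and 2.25-fold with 65–79*PE (adjusted p = 5.69e-06 and 1.14e-05), from means of 27.7 ± 2.60 and 16.7 ± 1.78 CPM (SD, n = 3). With 65–79*SE its mean was 55.8 ± 0.497 CPM in replicates 1–3, 2.05-fold over PBS (adjusted p = 1.81e-07), and 20.03 ± 2.44 CPM in replicates 4–6.

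The 2 further Clec4a genes parted. Clec4a1 rose from 1.20, 1.27 and 1.40 CPM with PBS to 4.65, 3.95 and 5.51 CPM with 65–79*SE and 3.76, 4.24 and 3.48 CPM with 65–79*PE in replicates 1–3 (3.71-fold and 3.04-fold, adjusted p = 6.42e-07 and 5.10e-06). It rose 2.51-fold in replicates 4–6 with 65–79*PE (adjusted p = 0.0015) and stood at 1.43, 0.828 and 0.880 CPM with 65–79*SE against 0.956, 1.14 and 1.13 CPM with PBS. Clec4a3 moved little, and was highest with 65–79*PE in both label sets, at 64.7, 68.4 and 66.5 CPM and at 77.5, 79.7 and 74.4 CPM. Its log2 fold change with 65–79*PE was 0.40 ± 0.07 and 0.51 ± 0.07 (adjusted p = 0.000458 and 0.00016). Clec4a3 was lower with 65–79*SE than with 65–79*PE in both label sets, by -0.53 ± 0.07 and -0.37 ± 0.07 on the log2 scale (adjusted p = 0.000165 and 0.00154), the reverse of Clec4d and Clec4e. The limit given for those genes in replicates 4–6 holds here too.

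By counts, 6 of 9 members were called higher with 65–79*SE than with PBS in replicates 1–3 and 0 lower, where 22.8% of all tested genes were called either way and 12.6% higher (a call is an adjusted p under 0.05 and a change over 1.5-fold). With 65–79*PE, 4 of 9 were called, all higher, where 19.8% of genes were called (10.3% higher). Of the 9, 3 were called higher with 65–79*SE than 65–79*PE (Clec7a, Clec4e and Clec4n), beside 6.08% of genes (4.48% higher). Among replicates 4–6, 0 of 9 were called between 65–79*SE and PBS by edgeR, beside 0.72% of genes. Of the members, 2 had an unadjusted p under 0.05 and DESeq2 called 1, Clec4n (log2 fold change 0.78, adjusted p = 0.00644). With 65–79*PE, 5 of 9 were called, all higher, beside 10.8% of genes (6.16% higher), and 4 of 9 were called lower with 65–79*SE than 65–79*PE, beside 13.8% (7.9% lower). The median log2 fold change of the members with 65–79*SE was 0.79 in replicates 1–3 (all genes, -0.01) and 0.15 in replicates 4–6 (all genes, 0.00). With 65–79*PE the medians were 0.40 and 0.96 (all genes, 0.00 in both). Both contrasts against PBS share the PBS libraries. Tested between label sets, 6 of 9 members differed in the response to 65–79*SE (35.7% of genes), 3 in that to 65–79*PE (11.5%) and 7 in the difference of the peptides (28.8%).

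Over all libraries of the IFNγ series the direction of the peptide difference turned on the 3 libraries that stood apart. With them, Clec7a was lower with 65–79*SE than with 65–79*PE by a log2 of -0.65 (95% confidence interval -1.59 to 0.29, adjusted p = 0.401). Without them it was higher by 0.64 (adjusted p = 0.00527). Clec4a1 went from -0.34 to 0.34, Clec4a2 from -0.28 to 0.18 and Clec12a from -0.51 to 0.02. Clec4d, Clec4e and Clec4a3 did not turn: their log2 differences were 0.52, 0.63 and -0.44 with these libraries and 0.55, 0.85 and -0.56 without (adjusted p = 0.000467, 0.000439 and 4.97e-05 without). Without the 3 libraries, 65–79*SE is held by replicates 1–3 only. The values without them therefore rest on the same 65–79*SE libraries as the fit of that label set and are no check across label sets. Clec5a went from 0.18 (adjusted p = 0.409) to 0.51 (adjusted p = 0.000285) and Clec4n from 0.48 (adjusted p = 0.254) to 0.84 (adjusted p = 0.0655). Of 9 members, 4 were called between 65–79*SE and PBS over all libraries, beside 589 of 16845 genes (3.5%), and 6 without the 3 libraries, beside 3093 of 16672 genes. The count of 4 went to 0 with a replicate block (Clec7a, adjusted p = 0.0855) and to 0 without replicate 1, 2 or 3, where 14 to 31 genes were called in all. The contrast of 65–79*PE with PBS gave 4 calls over all libraries (12.9% of genes), and between the peptides 1, Clec4e (3.06%). What set these libraries apart was not tested.

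**Figure D2:**
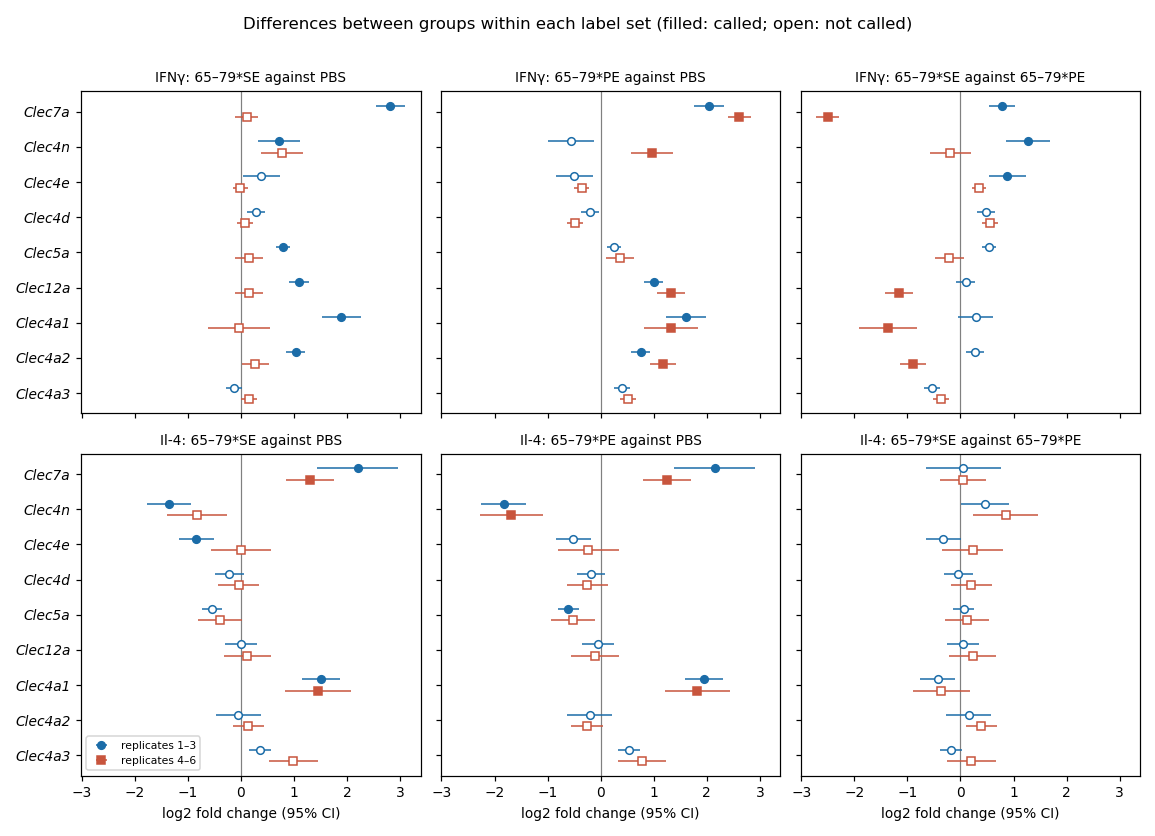
Log2 fold changes with 95% confidence intervals for the 9 members, in 3 contrasts (columns) and both series (rows), fitted within replicates 1–3 (circles) and 4–6 (squares); filled symbols are called. In the IFNγ series Clec7a lies at 0.78 and -2.50 in the contrast of the peptides, whereas in the Il-4 series both points lie at 0.05.

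In the Il-4 series Clec7a rose again, with both peptides and in both label sets, beside Clec4a1, while Clec4n fell. Clec7a stood at 12.3, 7.52 and 8.18 CPM with PBS, 60.0, 32.6 and 32.2 CPM with 65–79*SE and 61.7, 27.9 and 30.5 CPM with 65–79*PE in replicates 1–3. Replicate 1 was the highest of its 3 in each group, and no peptide library overlapped PBS. Replicates 4–6 stood at 25.3, 17.8 and 13.1 CPM, 46.6, 45.1 and 46.2 CPM, and 51.2, 42.1 and 39.9 CPM. The rise was 4.61-fold and 2.46-fold with 65–79*SE (adjusted p = 0.00454 and 0.0149) and 4.44-fold and 2.38-fold with 65–79*PE (adjusted p = 0.00562 and 0.0132), in the order of the label sets. Over all 12 libraries of each contrast the log2 fold changes were 1.70 ± 0.24 and 1.65 ± 0.24 (adjusted p = 0.000139 and 0.000121).

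Clec4n, which binds mannan as Clec7a binds β-glucan, moved the other way with Il-4. It stood at 6.29, 6.64 and 6.91 CPM with PBS, 2.13, 2.99 and 2.35 CPM with 65–79*SE and 1.82, 2.02 and 1.55 CPM with 65–79*PE in replicates 1–3. In replicates 4–6 it stood at 2.47, 3.53 and 2.72 CPM, 1.93, 1.40 and 1.60 CPM, and 1.19, 0.696 and 0.801 CPM. All peptide libraries lay under all PBS libraries of their label set. The fall was 2.57-fold with 65–79*SE and 3.54-fold with 65–79*PE in replicates 1–3 (adjusted p = 0.0023 and 0.000494). With 65–79*PE it was 3.21-fold in replicates 4–6 (adjusted p = 0.0119), and 65–79*SE gave a log2 fold change of -0.83 ± 0.25 (adjusted p = 0.144).

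The other activating receptors moved less. Clec5a fell 1.52-fold with 65–79*PE in replicates 1–3 (adjusted p = 0.00314), from 147 ± 12.7 to 92.9 ± 7.86 CPM (SD, n = 3). With 65–79*SE its log2 fold change was -0.54 ± 0.09 (adjusted p = 0.0051). Levels in replicates 4–6 were 155 to 251 CPM with PBS, 144 to 159 with 65–79*SE and 112 to 169 with 65–79*PE, and the groups overlapped. Clec4e fell 1.79-fold with 65–79*SE in replicates 1–3, from 197, 223 and 231 CPM to 139, 126 and 84.8 CPM (adjusted p = 0.00701). Clec4e of replicates 4–6 averaged 149 ± 13.5 CPM with PBS and 149 ± 68.8 CPM with 65–79*SE, where replicate 4 alone stood at 228 CPM. Clec4d, at 146 to 376 CPM, was called in no Il-4 contrast.

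Of the Clec4a family, Clec4a1 rose with both peptides. It stood at 2.86, 3.20 and 3.01 CPM with PBS, 7.45, 9.58 and 7.96 CPM with 65–79*SE and 10.3, 10.3 and 13.0 CPM with 65–79*PE in replicates 1–3. Levels were lower in replicates 4–6, at 1.04, 0.647 and 1.04 CPM, 1.84, 2.54 and 3.14 CPM, and 3.38, 3.51 and 2.69 CPM. The folds were 2.85 and 2.75 with 65–79*SE (adjusted p = 0.000575 and 0.0391) and 3.84 and 3.53 with 65–79*PE (adjusted p = 8.82e-05 and 0.00919). Clec4a3 was called higher over all libraries with either peptide (log2 0.65 ± 0.14 and 0.62 ± 0.14, adjusted p = 0.00698 and 0.00578) and in neither label set alone. Without replicate 4 its values were 0.51 and 0.55, under 1.5-fold. The ITIM-bearing Clec12a and Clec4a2, which rose in the IFNγ series, were called in no Il-4 contrast. Clec12a stood at 123 to 181 CPM with PBS, 119 to 209 CPM with 65–79*SE and 109 to 181 CPM with 65–79*PE, and its groups overlapped in both label sets.

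**Figure D3:**
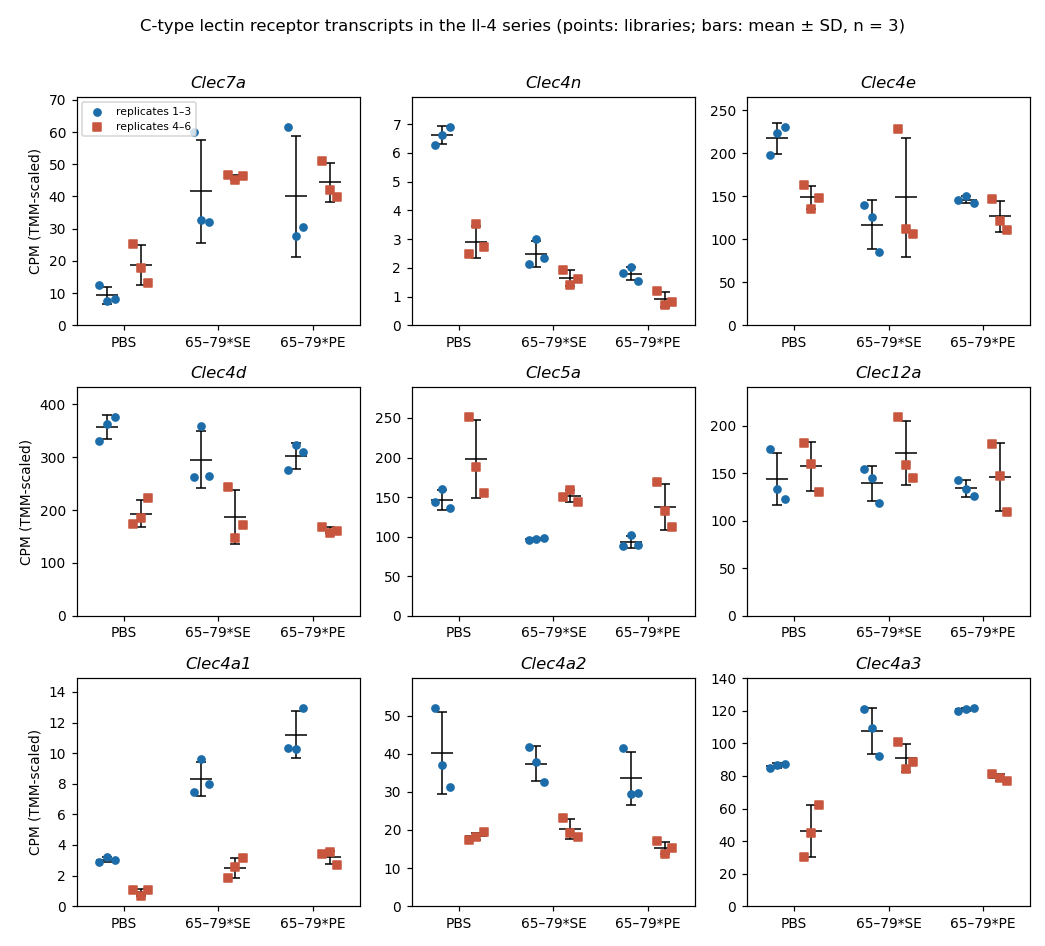
Levels of the 9 receptor transcripts in the Il-4 series, in TMM-scaled CPM on a linear axis from 0, with the same symbols and bars (mean ± SD of 3 libraries). Clec7a and Clec4a1 lie higher and Clec4n lower with both peptides than with PBS in each label set, as with Clec4n at 6.61 CPM against 2.49 and 1.80 CPM in replicates 1–3.

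By counts, 2 members were called higher and 2 lower with 65–79*SE in replicates 1–3, beside 6.44% of genes, and 2 higher and 2 lower with 65–79*PE, beside 3.95%. The counts in replicates 4–6 were 2 higher with 65–79*SE, beside 1.05% of genes (0.779% higher), and 2 higher and 1 lower with 65–79*PE, beside 2.24%. These small fits changed with 1 replicate number left out, which removes 1 library from each group. Fewer libraries also lower the power, so the weight of a single library was not tested apart. Between 0 and 4 members were then called with 65–79*SE and between 1 and 3 with 65–79*PE in replicates 1–3. In replicates 4–6 the counts were between 0 and 1 and between 0 and 3. The lowest counts came without replicate 2 (65–79*SE) or 3 (65–79*PE) and without replicate 5 or 6. Calls over all genes moved too. With a number left out in replicates 1–3 they ran from 27 to 1904 with 65–79*SE and from 44 to 929 with 65–79*PE, of 12311 to 12457 tested. In replicates 4–6 they ran from 8 to 123 and from 4 to 402, of 13507 to 13925 tested. Over all libraries 4 members were called with 65–79*SE, beside 3.12% of genes, and 5 with 65–79*PE, beside 4.38%. The fifth was Clec5a, whose log2 fold change of -0.59 lay just past 1.5-fold. It fell short of that fold with RLE or DESeq2 (-0.57 in each), with either other filter on low counts (-0.57), and without replicate 1, 2 or 4 (-0.57, -0.58 and -0.55), and its adjusted p was 0.298 with no label set term. Clec7a, Clec4a1 and Clec4n were called with either peptide whichever replicate number was left out. Their log2 fold changes ranged from 1.48 to 1.94, from 1.40 to 1.95 and from -1.89 to -1.05. With no label set term, Clec4a1 lost its call with 65–79*SE and with 65–79*PE (adjusted p = 0.485 and 0.153). Clec4n then lost its call with 65–79*SE (adjusted p = 0.184), and Clec7a kept both of its calls. In the Il-4 series no member differed between label sets past an adjusted p of 0.05 in any contrast (0 of 9 in each). Of all genes, 4.39% did so in 65–79*SE against PBS, 0.00705% in 65–79*PE against PBS and 0% between the peptides.

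With Il-4 the peptides were not told apart at any member. Of 9 members, 0 were called by edgeR between 65–79*SE and 65–79*PE over all libraries (0.00705% of genes called) or in either label set (0% of genes), and DESeq2 also called 0. In each label set 2 members had an unadjusted p under 0.05. The 3 members with an unadjusted p under 0.05 over all libraries were Clec4n, Clec4a1 and Clec4a2. For Clec4n the log2 difference was 0.65 (95% confidence interval 0.28 to 1.01, adjusted p = 0.367), for Clec4a1 -0.40 (-0.68 to -0.12, adjusted p = 0.452) and for Clec4a2 0.28 (0.02 to 0.53, adjusted p = 0.593). Clec7a gave 0.05 (-0.42 to 0.52). The intervals of Clec12a (-0.12 to 0.41), Clec5a (-0.13 to 0.32), Clec4d (-0.15 to 0.32), Clec4a3 (-0.26 to 0.31) and Clec4e (-0.41 to 0.36) all held 0. These intervals leave room for differences of that size.

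The response to 65–79*PE, whose libraries carried the cytokine response in both label sets, differed between the series at 4 members in both sets. Clec12a, Clec4a2, Clec5a and Clec4n all had a higher log2 fold change with IFNγ than with Il-4 (adjusted p at most 0.0334 in either label set, tested in 1 model over both tables). The largest of these was Clec4n in replicates 4–6, at 2.62 ± 0.32 (adjusted p = 3.10e-05). Of all genes, 24.4% in replicates 1–3 and 13.9% in replicates 4–6 passed that test. With 65–79*SE, 7 of 9 members passed in replicates 1–3 (33.6% of genes) and 4 in replicates 4–6 (2.57%), and in the difference of the peptides 2 (6.83%) and 4 (17%). For Clec7a the difference was 1.34 ± 0.25 in replicates 4–6 (adjusted p = 0.00119) and -0.13 ± 0.40 in replicates 1–3 (adjusted p = 0.892).

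The summed level of a dendritic cell list of 7 markers was higher with either peptide than with PBS in both series and label sets. In the Il-4 series it summed to 3.85 to 10.1 CPM with PBS and to 14.1 to 90.3 CPM with the peptides, and 4 of its 7 genes, Flt3, Ccr7, Cd209a and Siglech, were at or under 3 counts in all 18 libraries. Its most abundant gene, Itgax, reached 88.8 CPM and is shared with macrophages. In the IFNγ series it summed to 4.74 to 6.98 CPM with PBS, 18.1 to 19.8 and 7.91 to 9.16 CPM with 65–79*SE, and 9.49 to 12.4 and 18.2 to 23.4 CPM with 65–79*PE, in the order of the label sets. The members did not follow it throughout: in replicates 4–6 with 65–79*SE, Clec4a1 averaged 1.05 CPM against 1.08 CPM with PBS. The part of the list in the members' changes was not tested. In bulk RNA, fewer cells of a type and less RNA per cell cannot be told apart.

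Of 20 genes that carry the receptors' signals, all passed the filter on low counts. With IFNγ and 65–79*SE, 3 were called higher and 2 lower in replicates 1–3, beside 22.8% of all genes. In replicates 4–6 edgeR called 0 of 20, beside 0.72% of genes called. Of the 20, 11 had an unadjusted p under 0.05, a limit to which that share does not apply. With 65–79*PE, 1 was called higher and 4 lower in replicates 1–3 (19.8% of genes), and 4 higher and 1 lower in replicates 4–6 (10.8%). In replicates 1–3, 5 of 20 is near the background with either peptide. Between the peptides, 3 of 20 were called higher with 65–79*SE and 0 lower in replicates 1–3 (6.08% of genes called). The calls in replicates 4–6 were 2 higher and 4 lower (13.8%). The gene with the largest difference in replicates 1–3 was the kinase gene Src, at 31.2 CPM with 65–79*SE and 16.3 CPM with 65–79*PE (log2 0.92 ± 0.09, adjusted p = 8.76e-06). Syk, the kinase the activating receptors share, was higher with 65–79*SE than with 65–79*PE in both sets, by 0.84 ± 0.07 and 0.91 ± 0.09 (adjusted p = 4.12e-06 and 1.02e-05). In replicates 1–3 Syk averaged 102 CPM with PBS, 83.7 CPM with 65–79*SE and 46.3 CPM with 65–79*PE. The difference of Syk was therefore of the same sign as those of Clec4d and Clec4e. The list did not share it, with median log2 differences of -0.04 and -0.13 in the label sets. Replicates 4–6 again hold the 65–79*SE libraries with a low IFNγ list. With Il-4 the calls were 0 higher and 1 lower with either peptide in replicates 1–3, in both cases Lyn (-0.65 ± 0.10 and -0.62 ± 0.10, adjusted p = 0.0035 and 0.00492), beside 6.44% and 3.95% of genes. For replicates 4–6 they were 0 with 65–79*SE (edgeR, 7 with an unadjusted p under 0.05) and 1 higher with 65–79*PE, Vav3, named after its values were seen (0.61 ± 0.10, adjusted p = 0.0141), beside 1.05% and 2.24% of genes. Between the peptides with Il-4, 0 of 20 were called in either label set (edgeR, 2 with an unadjusted p under 0.05 in each). The adaptor gene Fcer1g, named after its values were seen, had log2 fold changes between -0.14 and 0.11 in all within-set contrasts of both series and was called in 0 of them.

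Among 25 other C-type lectin genes, 8 to 12 passed the filter on low counts, and their counts stand beside the same shares of all genes. With IFNγ and 65–79*PE, 6 were called higher and 1 lower in replicates 1–3, and 7 higher and 2 lower in replicates 4–6. Those called higher in both were Clec9a, Cd69, Clec4b1, Clec1a, Clec2d and Clec4a4. Clec9a, a receptor for actin exposed on dead cells, averaged 0.0104 CPM with PBS and 3.00 CPM with 65–79*PE in replicates 1–3, and 0.0440 against 4.23 CPM in replicates 4–6. The early activation gene Cd69 went from 0.119 to 1.49 CPM and from 0.152 to 5.20 CPM. With PBS, Clec9a lay under the level of 3 counts and Cd69 was so low that both passed the filter through peptide libraries only. Genes this low with PBS could hardly be called lower. Their calls, which the counts above include, say little beyond detection with the peptide. With IFNγ and 65–79*SE, 7 were called higher and 2 lower in replicates 1–3, and 1 higher in replicates 4–6, Mrc1, also named after its values were seen. With Il-4 the same 3 genes were called higher with either peptide in both label sets, and 0 lower. These were Mgl2 and Clec10a, which bind galactose-type sugars, and the mannose receptor gene Mrc1. Mgl2 went from 0.285 CPM with PBS to 54.6 CPM with 65–79*SE and 67.9 CPM with 65–79*PE in replicates 1–3, and the replicates 4–6 levels were 0.119, 26.6 and 40.9 CPM. The PBS mean of Mgl2 in replicates 4–6 was under the level of 3 counts, so the same limit holds there. Clec10a rose from 40.7 to 150 and 176 CPM and from 20.7 to 60.7 and 87.3 CPM. Between the peptides with Il-4, 0 of these genes were called (edgeR, 2 and 5 with an unadjusted p under 0.05 in the label sets).

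The genes most like a member were taken from the log2 CPM of the 18 libraries of a series, centred within label sets, and are a description over libraries that share their treatment. With IFNγ, Clec7a was followed most closely by Klrk1, C1qa and Serpina3g (Pearson r 0.99 for each, n = 18), and Clec4d by Dnajb6, Dtnb and Lhfpl2 (0.95, 0.92 and 0.92). With Il-4, Clec4a1 was followed by Mgl2, Mrc1 and Clec10a (0.96, 0.96 and 0.95), and Clec4d by Rmdn2, Cat and Phkg2 (0.88, 0.85 and 0.84). Those nearest to Clec4a1 were thus the 3 other lectin genes called higher with either peptide in both label sets of the Il-4 series.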

How the data were processed

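RAW264.7 RNA was prepared by the authors as stranded poly(A) libraries and read as single ends of 100 bases. The deposited counts are whole reads per gene, made by the authors with featureCounts on GRCm38.p5 and a GENCODE annotation, from uniquely mapped reads. The aligner and the strand setting are not given in the sources used here. No normalization had been applied, 0 rows lacked a name, and 47214 of 49566 distinct names (95.25%) matched the annotation used for positions.

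Counts were fitted with edgeR 4.0.16 (quasi-likelihood, TMM, filterByExpr with a minimum count of 10) under R 4.3.3, over all libraries of a series with label set as a term and within each label set. Benjamini-Hochberg adjustment ran over all tested genes (12350 to 16845), also for differences between label sets and series. The share of all genes with an unadjusted p under 0.05 was not taken, so counts at that limit have no background beside them. Intervals are 95%, fold changes are those of the edgeR fit at its default settings, and the log2 CPM used for correlations took a prior count of 2. On simulated counts, 93 to 100% of 200 genes changed 2-fold were recovered for 65–79*SE against PBS, with 3 to 8 false calls. The simulation covered all libraries and replicates 1–3 of each series, and the other label set alone was not simulated. The share recovered was not taken apart for genes with few counts. Whether it carries over to the IFNγ series, where some 65–79*SE libraries stood apart, was not tested. Alternatives were RLE, DESeq2 1.42.0, other filters, no fold threshold, a replicate block, no label set term and left-out libraries. The members and lists were chosen with earlier results of these data known. Named genes were all members, and from the lists those called the same way in both label sets of a contrast or with the largest change of the list in a label set. Fcer1g, Vav3 and, with IFNγ, Mrc1 fell outside this rule. Some results of the lists and of the motif search are not reported here.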

Additional observations from a re-analysis of the deposited data

Results flagged for a closer look

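Between label sets, 16 of 54 tests over members, series and contrasts passed an adjusted p of 0.05 (edgeR), all in the IFNγ series. For 65–79*SE against PBS, the log2 fold change in replicates 1–3 minus that in replicates 4–6 was 2.68 for Clec7a, 1.90 for Clec4a1, 0.92 for Clec12a, 0.74 for Clec4a2, 0.61 for Clec5a and -0.30 for Clec4a3. For 65–79*PE against PBS it was -1.56 for Clec4n, -0.61 for Clec7a and -0.46 for Clec4a2. For 65–79*SE against 65–79*PE it was 3.30 for Clec7a, 1.66 for Clec4a1, 1.48 for Clec4n, 1.28 for Clec12a, 1.20 for Clec4a2, 0.76 for Clec5a and 0.55 for Clec4e. The contrasts with 65–79*SE include the 3 libraries with a low IFNγ list, while those of 65–79*PE against PBS do not.

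Between the series, 26 of 54 tests passed. In replicates 1–3 the 65–79*SE response with IFNγ minus that with Il-4 was 2.04 for Clec4n, 1.30 for Clec5a, 1.19 for Clec4e, 1.06 for Clec12a, 1.05 for Clec4a2, 0.47 for Clec4d and -0.54 for Clec4a3. For 65–79*PE it was 1.25 for Clec4n, 1.03 for Clec12a, 0.95 for Clec4a2 and 0.85 for Clec5a. The difference of the peptides moved by 1.19 for Clec4e and 0.45 for Clec5a. In replicates 4–6 the 65–79*SE response differed by 1.60 for Clec4n, -0.855 for Clec4a3, -1.19 for Clec7a and -1.50 for Clec4a1. For 65–79*PE the values were 2.62 for Clec4n, 1.40 for Clec12a, 1.40 for Clec4a2, 1.34 for Clec7a and 0.86 for Clec5a. The difference of the peptides moved by -1.025 for Clec4n, -1.28 for Clec4a2, -1.375 for Clec12a and -2.53 for Clec7a. In groups of 6 libraries, 0 of 54 held a value far from the others by Dixon's test, which chance gives in about 1 of 20. Such a group pools both label sets, whose levels differ, so the test could hardly single out a library and says little of outliers.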

How the results depend on the processing

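Of the counts of called members under the alternatives, 160 stayed within 1.5 times and 29 moved; of the values of single members, 1030 kept sign and call, 65 lost the call, 36 gained it and 13 turned sign. In the IFNγ series over all libraries, the count for 65–79*SE against PBS went from 4 to 0 with a replicate block or no label set term, and ranged from 0 to 5 with 1 replicate number left out. Genes called in all went from 589 to 152 and 22 in those settings, and ran from 14 to 1154 with a number left out. The block gave adjusted p of 0.0855 for Clec7a. For 65–79*SE against 65–79*PE the count went from 1 to 3 with no fold threshold (9.6% of genes) and to 0 with no label set term (78 genes called in all). It was 2 without the 3 libraries that stood apart (860 genes) and 0 to 1 with a replicate left out (300 to 536 genes). Without those 3 libraries Clec7a turned to 0.64, Clec4a1 to 0.34, Clec4a2 to 0.18 and Clec12a to 0.0218. With no fold threshold, 65–79*PE against PBS gave 7 over all libraries (31.8% of genes), 8 in replicates 1–3 (47.5%) and 8 in replicates 4–6 (24.6%), and the peptide contrast 7 in each label set (23.6% and 31%). In replicates 4–6, 65–79*SE against PBS went from 0 to 1 under DESeq2, no low count filter or the replicate block (318, 519 and 275 genes called in all). With a replicate left out Clec4a1 ranged from -0.40 to 0.15 and Clec4e from -0.0488 to 0.0341.

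In the Il-4 series, no label set term left 1 call for 65–79*SE and 2 for 65–79*PE over all libraries (62 and 115 genes called in all). It turned Clec4a3 between the peptides to -0.0074. With a replicate left out the 65–79*PE count ranged from 3 to 5 (404 to 594 genes called in all). Between the peptides Clec4a3 then ranged from -0.0411 to 0.10, Clec4d from -0.0254 to 0.145 and Clec4e from -0.23 to 0.0863. Within label sets the left-out counts were 0 to 4 and 1 to 3 in replicates 1–3, and 0 to 1 and 0 to 3 in replicates 4–6, where the calls over all genes given above moved too. Replicate numbers were to pair samples only if every pair correlated over 0.1, which held for 5 of 18 pairs with IFNγ and 14 of 18 with Il-4 (r up to 0.75). A library correlated best with its own number in 9 of 36 cases with IFNγ and 27 of 36 with Il-4, a hint from the data and not the design. With the block, the Il-4 counts were 4 and 5 over all libraries, 4 and 4 in replicates 1–3, 3 and 4 in replicates 4–6 and 0 between the peptides. Genes called against PBS with the block were 532 and 698, 1068 and 728, and 447 and 635 in the same order. The causes were not tested. Low counts limit Clec4n and Clec4a1 most.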
